A study of Bos taurus with 18 samples.

Results

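The genes listed were hepcidin and 9 further genes that regulate, carry, take up, store or release iron and heme. They were looked for in liver biopsies of dairy cows fed niacin or not. A listed gene was taken where the platform annotation gave a probe set that gene's symbol and no other, which held for 8 of the 10 (HAMP, BMP6, TFR2, TF, CP, HPX, TFRC and SLC40A1), among 24333 probe sets and 18010 such genes in all. Each of the 8 had 1 such probe set, and all 8 were bright enough to be tested. The ferritin genes FTH1 and FTL lay on 1 and 2 probe sets that also carry other symbols, and are not analysed here.

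The niacin group was 9 multiparous Holstein cows whose rations contained niacin protected from the rumen by a coating (NiaShure), dosed by body weight at 79 mg per kg. Of this dose 47 mg reached the duodenum and 31 mg could be absorbed, as the labels estimate. The control group was 9 multiparous Holstein cows on the same silage-based rations without niacin. Feeding began 3 weeks before expected calving, and every cow was biopsied 1 week after calving, when milk production has begun, so both groups share that state and neither shows a liver outside it. Total RNA of each cow was hybridised to 1 Bovine Gene 1.0 ST array (Affymetrix), and values are log2 expression per probe set. Array medians lay between 5.57 and 5.72, and all 12 hepatocyte marker genes were measured, each with a mean of at least 10.04 over the cows. The number of arrays limits the precision.

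Hepcidin, the product of HAMP, is a peptide hormone of hepatocytes that binds the iron exporter ferroportin (SLC40A1) and causes its breakdown, so that iron stays inside macrophages, gut cells and hepatocytes. Its transcription is known to be raised by iron, through bone morphogenetic proteins such as BMP6 and their SMAD messengers, and by inflammation, through interleukin 6 and STAT3. The liver also secretes the plasma proteins that carry iron and heme, several of which are acute-phase proteins. No sequences are shown because no file used here holds them.

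HAMP was the member that varied most from cow to cow, and the spread of the niacin group came mainly from a pair of its cows. Among control cows alone its SD of 0.35 was also the largest of the 8 genes (TFRC next, 0.31). HAMP was at 9.61 in niacin cow 3 and 9.52 in niacin cow 8, the lowest of all 18 cows, while the other 7 niacin cows lay between 11.01 and 11.61. The niacin group had a lowest value of 9.52, a median of 11.22 and a highest value of 11.61, and the control group 10.54, 11.10 and 11.72. Against the median of the other 16 cows (11.18), HAMP was 2.96-fold lower in niacin cow 3 and 3.15-fold lower in niacin cow 8. Both cows lay below every control, and the rest of the groups overlapped fully. The SD within groups was 0.60 on the log2 scale, larger than for 98.4% of the 18250 probe sets tested, and 0.19 among the niacin cows without the pair.

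Niacin and control cows did not differ in HAMP beyond this spread. The mean was 10.89 ± 0.77 with niacin and 11.10 ± 0.35 in controls (SD, n = 9 each), a log2 fold change of -0.20 with a 95% interval of -0.72 to 0.31. The adjusted p from limma was 0.884 and the exact two-sided permutation p was 0.480. Of the niacin cows 6 lay above the control median. Leaving out niacin cow 8 alone brought the log2 fold change to -0.033, leaving out niacin cow 3 alone to -0.044, and leaving out cows 3 and 8 together turned it to 0.17 (limma adjusted p = 0.788), so that neither sign was settled. Niacin cow 8 also had the highest mean of the red cell markers (6.29, all other cows 4.38 to 5.05) and of the neutrophil markers (6.60, all other cows 5.07 to 5.91). Niacin cow 3 was within the range of the others for both marker lists, at 4.57 for red cell and 5.49 for neutrophil markers. With the red cell mean as a covariate the log2 fold change of HAMP was -0.050, and with the neutrophil mean -0.035. Of the 10 listed red cell markers 8 were measured and 5 were bright enough to be tested, and the dimmest had a mean of 2.34. HAMP and the red cell mean had r = -0.575 over 18 cows (permutation p = 0.0453, adjusted p = 0.181) and -0.046 without cows 3 and 8.

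**Figure D1:**
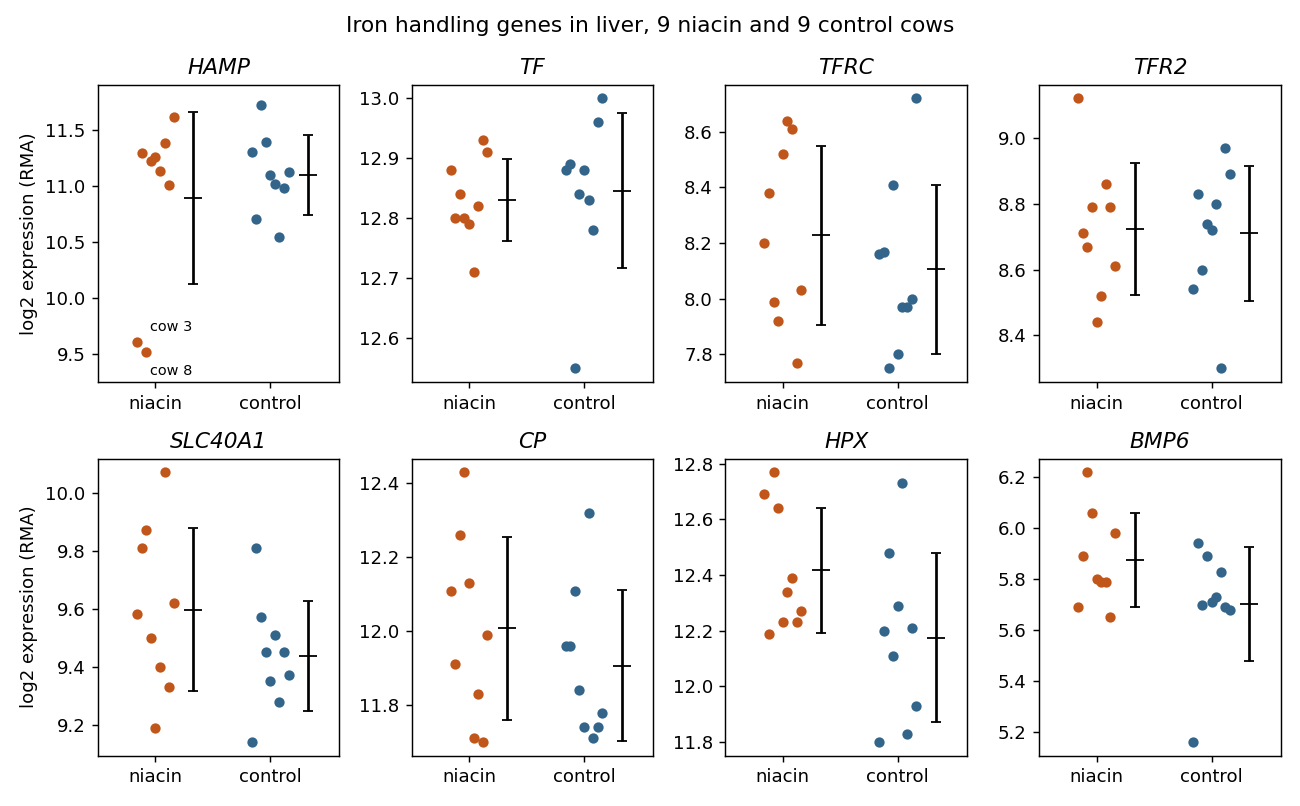
Log2 expression of the 8 genes in each cow, niacin group left of control group, each panel with its own axis. Points are cows, and bars beside them are the mean ± SD (n = 9 each). HAMP was at 9.61 and 9.52 in niacin cows 3 and 8, and between 10.54 and 11.72 in all others.

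BMP6 and TFR2 act upstream of hepcidin. BMP6, the ligand that in mice comes mainly from sinusoidal endothelial cells, had a lowest, median and highest value of 5.65, 5.80 and 6.22 in niacin cows, against 5.16, 5.71 and 5.94 in control cows. Most cows of both groups overlapped, with 3 niacin cows above every control and control cow 1 far below its group. The log2 fold change was 0.17 ± 0.10 (SE; limma adjusted p = 0.699; exact permutation p = 0.0923). It was 0.10 without control cow 1 and 0.051 with the neutrophil marker mean as a covariate. The mean was 5.87 ± 0.18 with niacin and 5.70 ± 0.22 in controls (SD, n = 9 each).

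TFR2, transferrin receptor 2, is a hepatocyte receptor that senses iron-loaded transferrin. It was at 8.44, 8.71 and 9.12 (lowest, median and highest) in niacin cows, against 8.30, 8.74 and 8.97 in control cows. These ranges nearly coincide. Its log2 fold change was 0.013, with a 95% interval of -0.18 to 0.21 (limma adjusted p = 0.985), and it lay on either side of 0 when single cows were left out (-0.038 without control cow 36, 0.049 without niacin cow 15).

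Among the plasma carriers, HPX had the log2 fold change largest in size of the 8 genes over 18 cows. The order depended on the cows and covariates used. HAMP was larger in size without niacin cow 40 (-0.29), control cow 36 (-0.27), niacin cow 33 (-0.27), control cow 11 (-0.25) or niacin cow 14 (-0.25). Without niacin cows 3 and 8 both HAMP (0.17) and TFRC (0.16) were larger, and TFRC was larger with the neutrophil marker mean as a covariate (0.19). HPX encodes hemopexin, which binds free heme and delivers it to the liver. It was at 12.19, 12.34 and 12.77 (lowest, median and highest) in niacin cows, against 11.80, 12.20 and 12.73 in control cows. Of the 9 niacin cows 8 lay above the control median, though 5 control cows lay within the range of the niacin cows, among them control cow 23 in the second place of all cows. The mean was 12.42 ± 0.22 with niacin and 12.18 ± 0.30 in controls (SD, n = 9 each), or 1.18-fold with a 95% interval of 0.997 to 1.40. This did not pass (limma unadjusted p = 0.0540, adjusted p = 0.655; exact permutation p = 0.0766). The log2 fold change of 0.24 was 0.15 without niacin cows 3 and 8, and 0.063 with the neutrophil marker mean as a covariate.

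CP encodes ceruloplasmin, a copper ferroxidase that prepares iron for loading onto transferrin, and TF encodes transferrin itself. CP was at 11.70, 11.99 and 12.43 (lowest, median and highest) in niacin cows, against 11.71, 11.84 and 12.32 in control cows. Both groups began at the same level and niacin cow 14 was highest. Its log2 fold change was 0.10 (95% interval -0.11 to 0.32; limma adjusted p = 0.860), 0.048 without niacin cow 14, 0.15 without control cow 23 and -0.0078 with the neutrophil marker mean as a covariate.

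TF was the steadiest member. It was at 12.71, 12.82 and 12.93 (lowest, median and highest) in niacin cows, against 12.55, 12.88 and 13.00 in control cows. The SD within groups was 0.10, and 1.56% of the tested probe sets had a smaller one. The log2 fold change was -0.014 with a 95% interval of -0.14 to 0.11 (limma adjusted p = 0.976). It was -0.051 without control cow 12 and 0.0049 without control cow 42.

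TFRC and SLC40A1 move iron into and out of cells. TFRC, the general transferrin receptor, was at 7.77, 8.20 and 8.64 (lowest, median and highest) in niacin cows, against 7.75, 8.00 and 8.72 in control cows, and the ranges coincided. Its log2 fold change was 0.12 (95% interval -0.16 to 0.41; limma adjusted p = 0.874), 0.072 without niacin cow 19 and 0.20 without control cow 42.

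SLC40A1, ferroportin, was at 9.19, 9.58 and 10.07 (lowest, median and highest) in niacin cows, against 9.14, 9.45 and 9.81 in control cows. Of the niacin cows 2 lay above every control. The log2 fold change was 0.16 ± 0.11 (SE; limma adjusted p = 0.764), 0.10 without niacin cow 33, 0.011 with the mean of the macrophage markers as a covariate and 0.063 with that of the neutrophil markers.

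In all, limma called 0 of the 8 genes at an adjusted p under 0.05, where 0% of all 18250 tested probe sets were called. At an unadjusted p under 0.05 it also gave 0 of the 8, against 7.74% of all probe sets, and the exact permutation test gave 0 at that level. HPX had an unadjusted p of 0.0491 in limma with an intensity trend and robust variances, and of 0.0329 with array weights. It was also under 0.05 in 6 of the 18 limma fits that left out 1 cow. The 95% intervals of the fold change were narrowest for TF, from 0.905 to 1.08, and widest for HAMP, from 0.606 to 1.24.

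**Figure D2:**
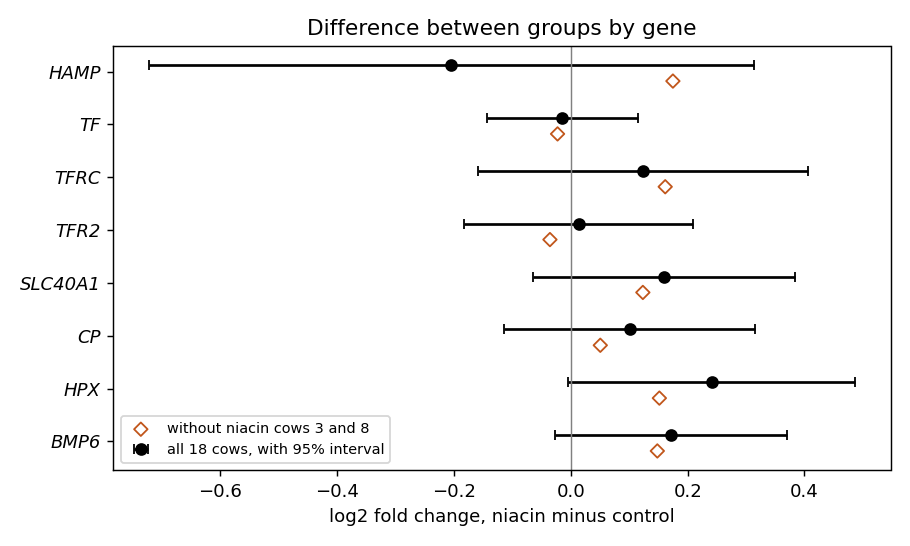
Log2 fold change, niacin minus control, of the 8 genes. Black points and bars are the limma estimate and its 95% interval over 18 cows, and open diamonds the estimate without niacin cows 3 and 8. All 8 intervals include 0, and HAMP moves to 0.17 from -0.20.

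Because 2 cows lay apart in HAMP and set the sign of several of its relations, these are given mainly over the other 16 cows, a set chosen by HAMP itself. With the other 7 members, Pearson r lay between -0.348 (TF) and 0.298 (CP), with an unadjusted permutation p under 0.05 for 0 of 7 and a smallest adjusted p of 0.649 (28 pairs). BMP6, the inducer in the list, had an r of -0.036 with HAMP. The pair turned the sign for HPX, CP, SLC40A1 and TFR2. For HPX, r was -0.373 over all 18 cows (permutation p = 0.128, adjusted p = 0.448), -0.784 in niacin cows (exact permutation p = 0.0166, adjusted p = 0.372) and 0.283 over the 16. For CP, r was -0.194 over 18 cows and 0.298 over the 16. SLC40A1 had r = -0.190 over 18 cows and 0.194 over the 16, and TFR2 -0.272 and 0.020. The second family set HAMP against 20 genes known to act on hepcidin or to mark the inflammatory or SMAD signals, and 0 of 20 passed over all 18 cows or over these 16, by Pearson or by Spearman.

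LBP, SAA3 and HP had the highest r with HAMP among these 16 cows, while the further acute-phase genes ORM1 and FGB had 0.160 and 0.082. LBP, the lipopolysaccharide-binding protein, had r = 0.561 (permutation p = 0.0248, adjusted p = 0.371) and rho = 0.555 (permutation p = 0.0278, adjusted p = 0.333). SAA3, a serum amyloid A gene, had r = 0.501 (permutation p = 0.0478, adjusted p = 0.371) and rho = 0.471 (permutation p = 0.0680, adjusted p = 0.333). HP, haptoglobin, had r = 0.489 (permutation p = 0.0556) and rho = 0.426 (permutation p = 0.102). SOCS3, a feedback target of STAT3, had r = 0.426 (permutation p = 0.101) and rho = 0.462 (permutation p = 0.0738). ID1, a target gene of SMAD signalling, had r = 0.337 (permutation p = 0.204) and rho = 0.439 (permutation p = 0.0917). Among the upstream regulators, HFE (0.251), TFR2 (0.020), TMPRSS6 (-0.103), which cleaves hemojuvelin, and HJV (-0.247), hemojuvelin itself, gave r values on both sides of 0. The SMAD target genes SMAD7 (0.305), SMAD6 (0.068) and ATOH8 (0.0096) had r above 0. The interleukin 6 receptor gene IL6R (0.234) and the hepatic factor CREB3L3 (0.202) also had r above 0, as did HMOX1 (0.345), which breaks down heme, and the haemoglobin scavenger CD163 (0.099). ALB, the albumin gene, had an r of -0.394. For these genes, and for ORM1 and FGB, the unadjusted permutation p was over 0.05 for r and for rho. For LBP, SAA3, HP and SOCS3 this was not seen over all 18 cows, where r was 0.0060, -0.0097, -0.079 and -0.072. LBP had r = -0.266 in niacin cows (exact permutation p = 0.478) and r = 0.664 in control cows (exact permutation p = 0.0492). ALB had r = 0.471 in niacin cows (exact permutation p = 0.171) and r = -0.716 in control cows (exact permutation p = 0.0335). The adjusted p in control cows was 0.492 for both genes. Over 18 cows ID1 (r = 0.529, permutation p = 0.0231, adjusted p = 0.460; rho = 0.546, permutation p = 0.0203, adjusted p = 0.334) and HJV (r = -0.473, permutation p = 0.0460, adjusted p = 0.460; rho = -0.470, permutation p = 0.0502) were the partners with r farthest from 0 instead. By rho, CREB3L3 (rho = 0.482, permutation p = 0.0448, adjusted p = 0.334; r = 0.235) came between ID1 and HJV in distance from 0. Niacin cows 3 and 8 had LBP at 11.28 and 10.98, both above the median of the other 16 cows (10.27), at the lowest HAMP of all.

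Some further iron genes were alike in cows 3 and 8 and others were not. HPX was at 12.69 and 12.77, ranks 3 and 1 of 18, and CP at 12.11 and 12.26, ranks 5 and 3. ALAS1, which encodes the rate-limiting first enzyme of heme synthesis in liver, was at 9.08 and 9.24, below all other cows (9.33 to 10.56). Of the upstream genes, BMP6 ranked 14 and 1, TFR2 ranked 1 and 12, and TMPRSS6 (8.46 and 7.34) ranked 3 and 18, while HJV (7.50 and 7.85) ranked 6 and 1 and HFE (6.63 in both) ranked 6 in both. IL6R ranked 1 and 17, and the SMAD target gene ID1 (6.41 and 7.23) ranked 18 and 12. These genes were picked out after their values were seen, and no test is given.

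**Figure D3:**
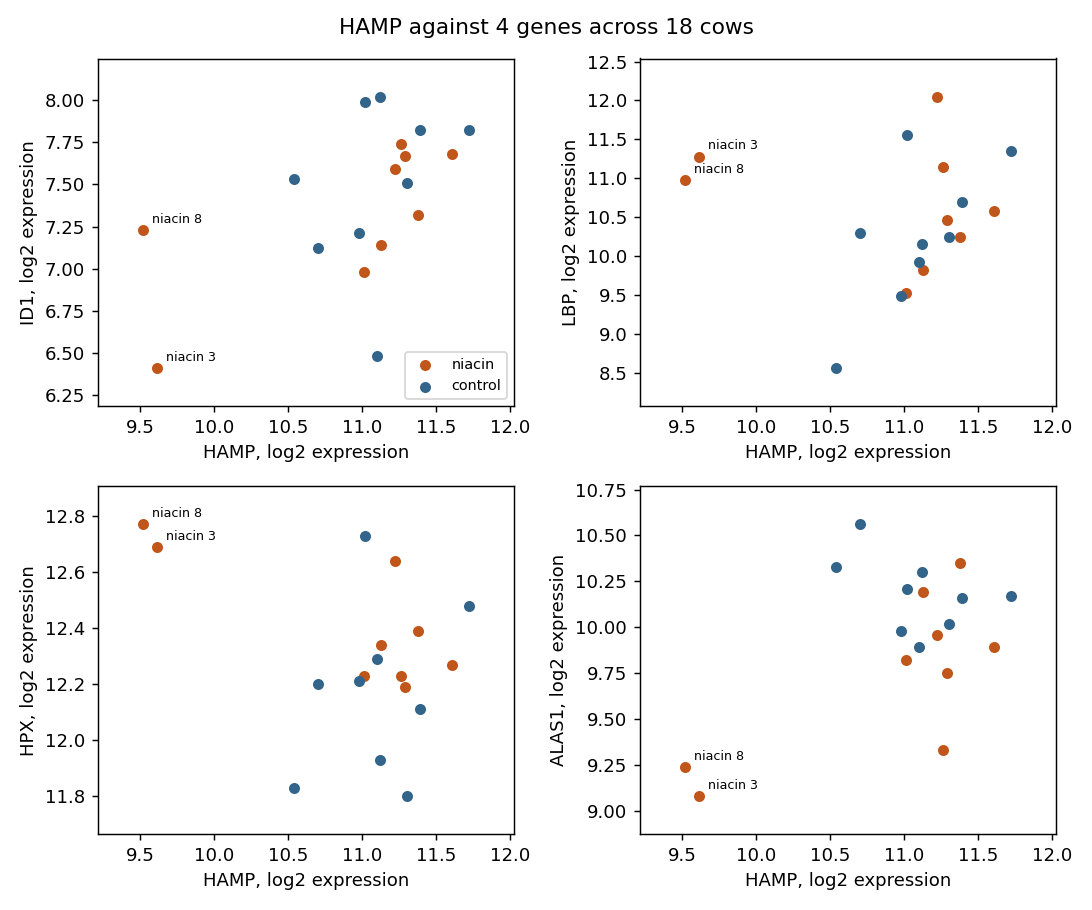
HAMP (x axis, log2 expression) against ID1, LBP, HPX and ALAS1 (y axes, log2 expression), 1 point per cow, niacin in orange and control in blue. Niacin cows 3 and 8 lie apart on the left of each panel, with HPX at 12.69 and 12.77 and ALAS1 at 9.08 and 9.24.

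Over all tested probe sets with 1 symbol, the genes nearest to HAMP were found by the r of values centred on each group mean over 18 cows, as a description. The highest were CCL1 (0.813), SIX6 (0.802), ITPR2 (0.796 and 0.755 on 2 probe sets), ZNF621 (0.765), BUD13 (0.746), TMEM198B (0.738) and IL25 (0.735). The lowest were KRT8 (-0.735), CXCL17 (-0.730), MTHFD1L (-0.701) and FETUB (-0.693). These rest on cows 3 and 8, since without them CCL1 had an r of 0.408, KRT8 -0.317, CXCL17 0.076, MTHFD1L 0.041 and FETUB -0.073. FETUB, the hepatic protein fetuin B, was at 10.07 and 11.33 in cows 3 and 8 and at 6.74 to 9.75 in the others. KRT8, an epithelial keratin, was at 5.18 and 6.19 there, against 4.02 to 4.99 in the others.

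HPX and CP varied together from cow to cow. Over 18 cows r was 0.687 (permutation p = 0.00163, adjusted p = 0.0456 over 28 pairs) and rho 0.536 (permutation p = 0.0234, adjusted p = 0.223). The sign was the same within both groups, with r = 0.674 in niacin cows (exact permutation p = 0.0532) and r = 0.707 in control cows (exact permutation p = 0.0328). Without control cow 23 and niacin cow 14, the cows farthest from the median of CP, r was 0.564 (permutation p = 0.0229, adjusted p = 0.214), and the adjusted p stayed under 0.05 in 6 of 18 sets that left out 1 cow. Its direction was the same in each of these sets, and its call after adjustment was not.

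No other pair passed. SLC40A1 and BMP6 had r = 0.559 (permutation p = 0.0151, adjusted p = 0.211) and rho = 0.510 (permutation p = 0.0317, adjusted p = 0.223), with 0.575 for r without niacin cows 8 and 33. The transferrin genes TF and TFR2 had r = 0.490 (permutation p = 0.0415, adjusted p = 0.237) and rho = 0.610 (permutation p = 0.00824, adjusted p = 0.223), with 0.533 for r without control cows 12 and 42. HPX and BMP6 had r = 0.488 (permutation p = 0.0371, adjusted p = 0.237) and rho = 0.224 (permutation p = 0.368), with 0.422 for r without control cow 23 and niacin cow 8. HPX and SLC40A1 had r = 0.484 (permutation p = 0.0424, adjusted p = 0.237) and rho = 0.512 (permutation p = 0.0318), with 0.417 for r without niacin cows 8 and 33.

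Markers of other cell types moved with SLC40A1 and HPX. In whole biopsies, fewer cells of a type and less RNA per cell cannot be told apart. Each of the 8 genes was set against the mean log2 value of 9 cell type marker lists, 72 relations in all, and 3 passed an adjusted permutation p of 0.05 over 18 cows. SLC40A1, which Kupffer cells use to return iron from old red cells, followed the macrophage markers (r = 0.738, permutation p = 0.00055, adjusted p = 0.0198; rho = 0.569, permutation p = 0.0156, adjusted p = 0.158). The r was 0.897 in niacin cows (exact permutation p = 0.00131) and 0.250 in control cows (exact permutation p = 0.525), and that difference was not tested. Without niacin cows 8 and 33 it was 0.596 (permutation p = 0.0144, adjusted p = 0.148). All 13 macrophage markers were measured, and their mean lay between 8.27 and 9.05 in niacin cows, against 8.21 and 8.63 in control cows.

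SLC40A1 also followed the sinusoidal endothelial markers (r = 0.699, permutation p = 0.00114, adjusted p = 0.0274; rho = 0.776, permutation p = 0.00034, adjusted p = 0.0122). The r was 0.802 in niacin cows (exact permutation p = 0.0106) and 0.708 in control cows (exact permutation p = 0.0408), and 0.685 without niacin cows 8 and 33 (adjusted p = 0.138). For this list 11 of 12 markers were measured, and their mean lay between 7.68 and 7.96 in niacin cows, against 7.48 and 8.05 in control cows. SLC40A1 had r = 0.575 (adjusted permutation p = 0.101) and rho = 0.561 with the T and NK cell markers. With the neutrophil markers r was 0.511 (adjusted permutation p = 0.157) and rho 0.629, above its rho with the macrophage markers. Its r was 0.333 for red cell, 0.171 for stellate cell, -0.0026 for B and plasma cell, -0.123 for hepatocyte and -0.158 for bile duct markers.

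HPX followed the neutrophil markers most closely (r = 0.761, permutation p = 8e-05, adjusted p = 0.00576; rho = 0.786, permutation p = 0.0002, adjusted p = 0.0122). The r was 0.641 in niacin cows (exact permutation p = 0.0454) and 0.904 in control cows (exact permutation p = 0.00093), and 0.704 without control cow 23 and niacin cow 8 (permutation p = 0.00272, adjusted p = 0.138). Of the 9 listed neutrophil markers 7 were measured, with a mean of 5.39 to 6.60 in niacin cows, against 5.07 to 5.84 in control cows. BMP6 and this mean had r = 0.685 (permutation p = 0.00652, adjusted p = 0.0939) and rho = 0.399 (permutation p = 0.102) over all cows, and r was 0.342 without control cow 1 and niacin cow 8, so that relation rests on those cows. These relations were added after the data were seen. Whether the cells behind the markers contribute to the levels of SLC40A1 or HPX was not tested. The covariate values above do not test it, since the neutrophil mean was itself 5.73 with niacin and 5.43 in controls (macrophage 8.64 and 8.44).

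**Figure D4:**
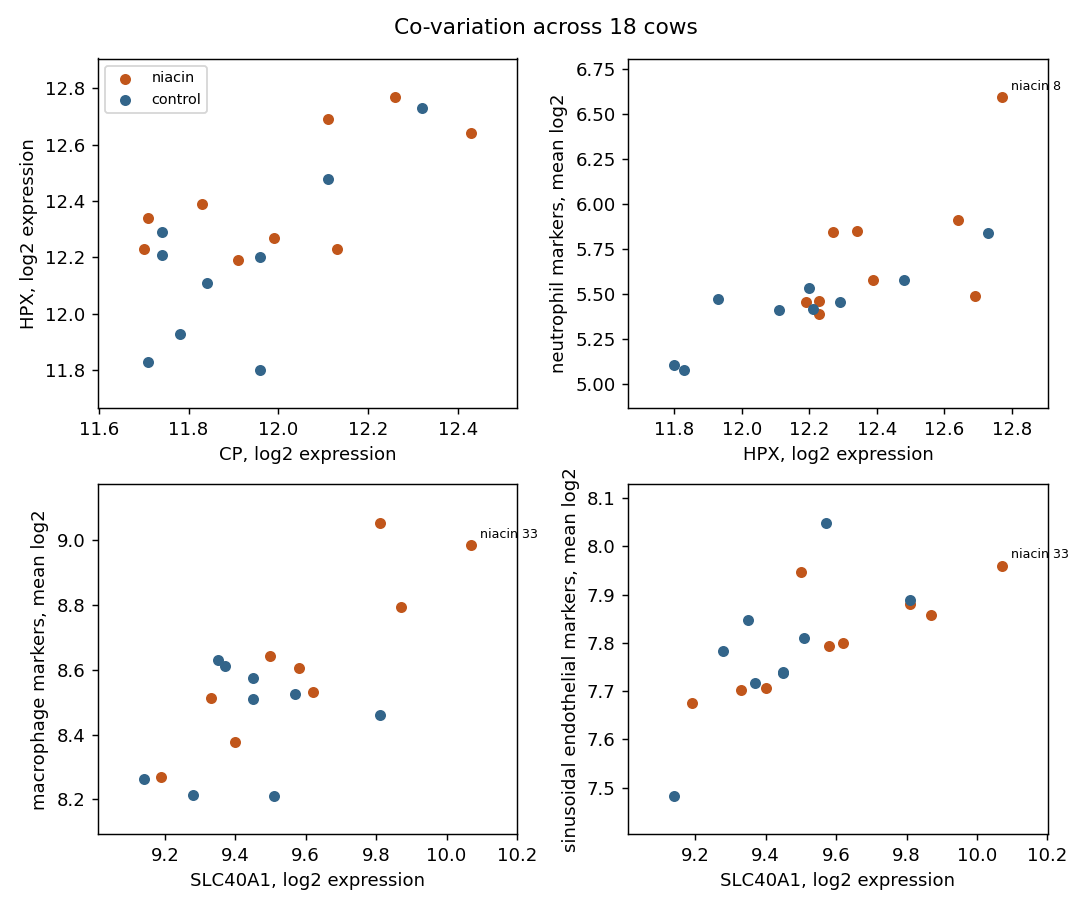
Co-variation across 18 cows, 1 point per cow, niacin in orange and control in blue. Panels show CP against HPX (log2 expression), HPX against the mean of 7 neutrophil markers, and SLC40A1 against the means of 13 macrophage and 11 sinusoidal endothelial markers, with r of 0.687, 0.761, 0.738 and 0.699.

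For the other members, the 3 genes of highest positive r were found in the same way. CP had ITGAV (0.921), MICAL2 (0.897) and LBP (0.891), and HPX had CFHR5 (0.885), SERPINA3-8 (0.853) and LRP1 (0.841). LRP1 is the receptor that takes up the complex of heme and hemopexin. SLC40A1 had NCEH1 (0.872), STK24 (0.827) and PLXNC1 (0.795), and BMP6 had IDS (0.726), SQSTM1 (0.714) and LSM10 (0.710). TFR2 had VKORC1 (0.843), VANGL1 (0.827) and FOXP3 (0.819), TF had IL1RAP (0.835), GLDC (0.829) and MLF2 (0.823), and TFRC had PRRT1B (0.752), GPRC5D (0.744) and PIGV (0.730). Each gene was chosen by its rank among 14793 probe sets, and no p is given. Negative relations were not listed for these members, and the r farthest from 0 was a negative one for TFRC (0.827 in size) and for BMP6 (0.778 in size). Without the 2 cows farthest from the member's median, r was 0.360 for LSM10 with BMP6, 0.494 for MLF2 with TF, 0.570 for PRRT1B with TFRC, and at least 0.643 for the others.

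The rest of the iron and heme pathway was described with 4 lists holding 77 tested genes, beside a list of acute-phase genes. Limma called 0 of the 77 at an adjusted p under 0.05, and 7.79% had an unadjusted p under 0.05, against 7.74% of all probe sets. Of these, 5 were higher with niacin, where 3.34% of all probe sets were, and 1 lower, where 4.41% were. The median log2 fold change of the 77 was 0.01, as it was over all tested probe sets. Of the 77, 41 lay above and 36 below 0, beside 9813 and 8437 of all 18250 tested probe sets.

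Among 21 genes of the SMAD route to hepcidin, 11 lay above and 10 below 0 (median 0.03). At an unadjusted p under 0.05 there was 1 (4.76%, against 7.74% of all probe sets). This was FURIN, a protease that cleaves the hepcidin precursor, at 9.88 ± 0.24 with niacin and 9.61 ± 0.23 in controls (SD, n = 9 each), a log2 fold change of 0.27 (limma adjusted p = 0.558). Among 13 genes of the inflammatory route, 7 lay above and 6 below 0 (median 0.04) and 0 reached an unadjusted limma p of 0.05. SOCS3 (0.31) and JAK1 (0.10), a kinase of the interleukin 6 receptor, came nearest, with limma adjusted p of 0.737 and 0.783, and SOCS3 was at 0.18 without niacin cow 14. With the neutrophil mean as a covariate SOCS3 was at 0.030, and with the macrophage mean JAK1 was at 0.012.

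Among 21 genes of iron uptake, storage and iron-sulfur assembly, 12 lay above and 9 below 0 (median 0.01). At an unadjusted p under 0.05 there were 2 (9.52%, against 7.74% of all probe sets). EPAS1, the hypoxia factor HIF-2 alpha, had a log2 fold change of 0.20 and GLRX5, a mitochondrial glutaredoxin of iron-sulfur assembly, 0.19 (limma adjusted p = 0.558 and 0.612). Without niacin cows 3 and 8, 1 of the 21 reached that level.

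Of 22 heme genes, 11 lay on either side of 0 (median -0.01), and 3 had an unadjusted p under 0.05 (13.6%, against 7.74% of all probe sets). With the neutrophil mean as a covariate 1 did. ALAS1 was at 9.08, 9.82 and 10.35 (lowest, median and highest) in niacin cows, against 9.89, 10.17 and 10.56 in control cows. Of the niacin cows 5 lay below every control, and cows 3 and 8 were lowest. The mean was 9.73 ± 0.43 with niacin and 10.18 ± 0.20 in controls (SD, n = 9 each), a log2 fold change of -0.45 (limma unadjusted p = 0.00595, adjusted p = 0.476; exact permutation p = 0.0127), or -0.28 without cows 3 and 8. LRP1 had a log2 fold change of 0.23 (limma adjusted p = 0.559), or 0.12 with the neutrophil mean as a covariate, and all 9 niacin cows lay above the control median.

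HP, which binds free haemoglobin, belongs to the heme and the acute-phase lists. It was at 9.12, 12.36 and 12.78 (lowest, median and highest) in niacin cows, against 8.37, 10.56 and 12.67 in control cows. The ranges overlapped almost fully while the medians were far apart. The low end of the niacin range was niacin cow 39 alone, with the next niacin cow at 11.68. The log2 fold change was 1.51 (limma adjusted p = 0.532; exact permutation p = 0.0342), and 0.79 with the neutrophil mean as a covariate. It was 1.87 without niacin cow 39 and 1.25 without control cow 1.

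Among 19 acute-phase genes 13 lay above and 6 below 0 (median 0.05). Of the 19, 5 had an unadjusted p under 0.05 (26.3%, against 7.74% of all probe sets). Without niacin cows 3 and 8 this held for 2 of them, and with the neutrophil mean as a covariate for 1. Beside HP, the 5 were SAA3 (log2 fold change 1.30), the inter-alpha-trypsin inhibitor genes ITIH4 (0.39) and ITIH3 (0.27), and AHSG (-0.27), whose protein fetuin A is lowered in human inflammation. Their limma adjusted p lay between 0.532 and 0.592. The exact permutation p was 0.0581 for SAA3 and at most 0.0342 for the others. SAA3 had an unadjusted limma p under 0.05 in 13 of the 18 fits that left out 1 cow. With the neutrophil mean as a covariate SAA3 was at 0.69, ITIH4 at 0.23, ITIH3 at 0.14 and AHSG at -0.28. This list was drawn up with earlier results of these data known, so its count is not independent evidence.

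**Figure D5:**
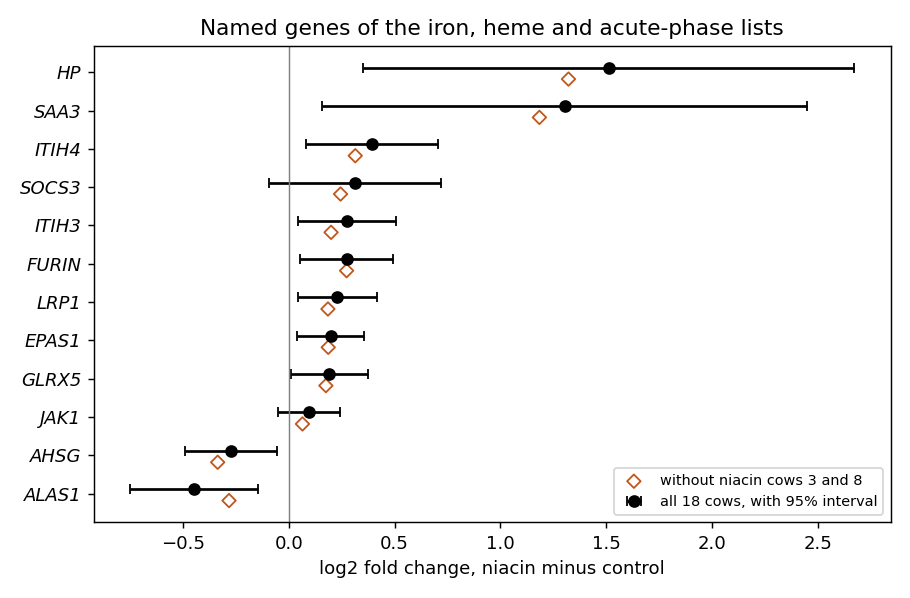
Log2 fold change, niacin minus control, of the 12 named genes from the 5 lists. Black points and bars are the limma estimate and its 95% interval over 18 cows, and open diamonds the estimate without niacin cows 3 and 8. None passed an adjusted p of 0.05, and ALAS1 moves to -0.28 from -0.45.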

How the data were processed

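The authors deposited log2 values, 1 per probe set. Their processing notes, as the submitters gave them to GEO, name RMA and Affymetrix Expression Console. Their versions are not given in the sources used here. RMA's quantile step hides a shift common to most genes. Per the labels, RNA of 11 cows per group was available, the 2 samples of lowest RNA integrity in each group were left out, and integrity of the 18 was 7.2 ± 0.5 (SD).

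Here, 6083 probe sets with a mean under 4.35 over 18 arrays were left out, and 18250 were fitted with limma 3.58.1 in R 4.3.3 (lmFit, eBayes, no covariate, Benjamini-Hochberg). Exact permutation used all 48620 splits. Correlations used 100000 resamples, or all 362880 orders within a group of 9. Scripts were tested on simulated data. Of 18457 probe sets with 1 symbol, 17996 matched RefSeq by gene ID, which changed 0 symbols, and 688 had several symbols and 5188 none. Arrays were grouped by title. Cow numbers differ between groups, so nothing was paired, and no batch is given in the labels. No 2 arrays were identical (r 0.972 to 0.990).

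Members and lists were chosen with earlier results of these data known. The text names all members, list genes with an unadjusted p under 0.05 (otherwise the 2 smallest), all partner genes, and the genes of highest centred r (8 for HAMP with the 4 lowest, 3 for each other member). Alternatives were other filters, variance models, array weights, normalizations, covariates and samples. Leaving out niacin cows 3 and 8 together, and the neutrophil covariate, were chosen after the data were seen.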

Additional observations from a re-analysis of the deposited data

Results flagged for a closer look

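Single cows stood apart from their group of 9 in 4 of 40 groups of values, by Dixon's ratio of a gap to the whole range at its 95% critical value for 9 cows. By chance about 1 in 20 would do so, or 2 of 40, and the groups share cows. BMP6 was at 5.16 in control cow 1, with the next control at 5.68, a gap of 0.667 of the range. TF was at 12.55 in control cow 12, with the next control at 12.78, a gap of 0.511 of the range. HP was at 9.12 in niacin cow 39, with the next niacin cow at 11.68, a gap of 0.699 of the range. ITIH3 was at 11.20 in control cow 36, with the next control at 11.74, a gap of 0.635 of the range. HAMP in niacin cows 3 and 8 was not picked out in this way, because the 2 low values lay close to each other.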

How the results depend on the processing

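The count of called probe sets was 0 under each alternative except without niacin cow 39, where it was 1 (range 0 to 1), and the counts of called members and of called list genes were 0 under each. The log2 fold change of HAMP lay between -0.29 and -0.033 on leaving out 1 cow, and was 0.17 without niacin cows 3 and 8. TFR2 changed sign to -0.074 with the macrophage covariate, -0.036 without niacin cows 3 and 8 and -0.011 with the neutrophil covariate, and CP to -0.0078 with the neutrophil covariate. On leaving out 1 cow, TFR2 lay between -0.038 and 0.049 and TF between -0.051 and 0.0049. The 1 pair of members past the threshold became 0 with Spearman's rho, with values centred on the group mean, in niacin cows alone, in control cows alone and without the 2 farthest cows, and 0 to 2 on leaving out 1 cow. It stayed at 1 with arrays centred on their median. HAMP against partner genes gave 0 under each. Averaging several probe sets of a gene was not run, since each member had 1. The 95% interval of a log2 fold change reached 0.19 to either side at the median probe set, which limits what 18 arrays can show.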

Other observations

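TF and TFRC, the genes of transferrin and its general receptor, had opposite relations in the groups. The r was -0.720 in niacin cows (exact permutation p = 0.0293) and 0.608 in control cows (exact permutation p = 0.0928), and neither passed adjustment over 28 pairs. The difference was not tested, and without control cows 12 and 42, the farthest from the median of TF, r over the other 16 cows was -0.569. TF and the mean of 12 hepatocyte markers had r = 0.609 (permutation p = 0.00572, adjusted p = 0.0939 over 72 relations) and rho = 0.738 (permutation p = 0.00071, adjusted p = 0.0170), and r was 0.588 without control cows 12 and 42.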
